A study of Mus musculus with 2 samples.

Results

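Barcodes carrying Gdf5 transcripts were picked out of 2 single-cell libraries of embryonic mouse limb muscle. They number 216 of 16377 barcodes of sufficient quality, 185 of 12271 at embryonic day E12.5 and 31 of 4106 at E15.5. A barcode was selected when it had at least 500 detected genes, under 10% mitochondrial UMIs, at least 2 UMIs of Gdf5 and 0 UMIs of Matn1, Myog and Cdh5. A UMI (unique molecular identifier) stands for 1 captured transcript. Matn1 is a cartilage matrix gene, Myog a muscle differentiation factor and Cdh5 a cadherin of endothelial cells, so that the rule removes barcodes holding RNA of those cells. The comparison group in each library was the kept barcodes with 0 UMIs of Gdf5, 11418 at E12.5 and 3979 at E15.5, called Gdf5-negative here.

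Gdf5 (ENSMUSG00000038259, chr2:155941023-155945367, minus strand, GRCm38) encodes growth differentiation factor 5, a secreted ligand of the bone morphogenetic protein (BMP) family. In the limb it marks the joint interzone, the band of flattened cells that appears across a continuous cartilage rod where a joint will form. Interzone cells lose features of chondrocytes while the flanking cells keep them, and their descendants are known to contribute to articular cartilage, ligaments, synovium and other joint tissues. Wnt ligands, the BMP antagonist Nog and transcription factors such as Erg, Osr2 and Barx1 are known to act in or around this band.

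The tissue was limb skeletal muscle of wild-type C57Bl/6 embryos, fore- and hindlimbs together, dissociated mechanically and with trypsin. Each age gave 1 droplet library (10x Chromium 3′ chemistry, with 20000 cells loaded and 10000 aimed at). With 1 library per age there is no replicate, and the labels state neither the number nor the sex of the embryos pooled. All intervals below are 95% intervals that cover counting error only (exact Poisson for levels, exact conditional for ratios, exact binomial for shares), and no difference was tested. The deposited matrices held 12941 and 5780 barcodes with 34907675 and 46966083 UMIs. Of the barcode sequences, 17 occurred in both libraries, 13 of them among the kept barcodes and 0 among the selected ones.

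The selected barcodes made up 1.51% (1.30 to 1.74%) of kept barcodes at E12.5. At E15.5 they made up 0.755% (0.514 to 1.07%). They held 440 of the 1145 Gdf5 UMIs of kept barcodes at E12.5, and 96 of the 218 found at E15.5. Just inside the limit stood 131 barcodes with 2 Gdf5 UMIs at E12.5, and 12 more at E15.5. Just outside it stood 575 and 73 barcodes with exactly 1 Gdf5 UMI and none of the 3 excluded genes. At the upper end, 54 selected barcodes at E12.5 and 19 at E15.5 had 3 or more, up to 5 and 6. Another 24 barcodes at E12.5 and 8 at E15.5 reached 2 Gdf5 UMIs but held an excluded gene, most often Matn1 at E12.5 (16 barcodes) and Myog at E15.5 (5 barcodes).

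Gdf5 UMIs also occurred in endothelial barcodes, which give a background for the rule. Among barcodes with Cdh5, 8 of 256 (3.13%) had a Gdf5 UMI at E12.5, against 6.95% of all kept barcodes. The E15.5 figures were 3 of 195 (1.54%) and 3.09%. At 2 or more Gdf5 UMIs the shares were 1.95% with Cdh5 against 1.70% of all kept barcodes at E12.5, and 0.513% against 0.950% at E15.5. At E12.5 the share with Cdh5 (5 barcodes, 0.637 to 4.50%) was thus not below that of all kept barcodes, so that the limit alone does not lie above this background. The barcodes with Cdh5 were deeper, with median totals of 3388 and 12285 UMIs against 2453 and 9518. The share that passes a limit in raw UMIs also moves with depth. With every barcode thinned at random to 2000 UMIs, the same rule took 78 of 8212 barcodes (0.950%, 0.752 to 1.18%) at E12.5 and 2 of 3834 (0.0522%, 0.00632 to 0.188%) at E15.5. The selected E15.5 barcodes are therefore a small set found at a greater depth, and the 2 shares are not compared further.

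Depth was similar between selected and Gdf5-negative barcodes at E12.5, with median totals of 2550 and 2452 UMIs. At E15.5 the selected barcodes were shallower, with 7588 against 9605 UMIs. Median mitochondrial shares were 2.94% against 3.04% at E12.5 and 3.57% against 3.52% at E15.5. Xist and Y-linked UMIs placed 15 of 153 sexed selected barcodes (9.80%, 5.59 to 15.7%) as male at E12.5, against 23.2% of Gdf5-negative ones. At E15.5 these were 9 of 28 (32.1%, 15.9 to 52.4%) and 20.7%. The part of sex in the results was not tested beyond values restricted to barcodes of 1 sex.

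The label was checked with 8 other interzone genes (Erg, Wnt4, Wnt9a, Wnt16, Dcx, Gdf6, Sfrp2 and Barx1) after thinning to 2000 UMIs. At least 1 of them was detected in 89.6% (83.2 to 94.2%, n = 135) of selected barcodes at E12.5 and in 36.1% of Gdf5-negative ones. At E15.5 the shares were 80.6% (62.5 to 92.5%, n = 31) and 38.8%. Barcodes with exactly 1 Gdf5 UMI lay between, at 72.5% and 64.4%, and barcodes with Cdh5 at 35.1% and 22.7%. At least 2 of the 8 genes were detected in 35.6% against 7.01% at E12.5, and in 19.4% against 4.80% at E15.5. Sfrp2 alone was detected in 77.0% of selected barcodes at E12.5 and then in 64.5%, so that it carried most of the score. Gdf6, a close relative of Gdf5, had 0 UMIs at the earlier age and 4 at the later, Wnt16 had 3 UMIs at E15.5, and Wnt9a had 5 UMIs at E12.5, below the level of Gdf5-negative barcodes. Chondrocyte markers were at least as frequent: at least 1 of 9 (Matn1 left out) was detected in 94.8% of selected and 64.9% of Gdf5-negative barcodes at E12.5, and in 83.9% and 16.9% at E15.5. At least 2 of the 9 were detected in 63.0% against 40.4%, and later in 54.8% against 7.28%. Barcodes with Matn1 and no Gdf5 held at least 1 interzone gene in 37.6% at E12.5 and 24.0% at E15.5. At least 1 of the 9 chondrocyte markers was detected in 93.7% and 76.0% of them. At least 3 were detected in 80.9% and 70.7%, against 31.9% and 45.2% of selected barcodes. The rule bars Matn1, so that lower cartilage markers are built into this comparison. Interzone markers were thus more frequent than in both groups. Most selected barcodes also held a chondrocyte marker, and they are called selected barcodes here.

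Levels are given in CPM, the UMIs of a gene per 1000000 UMIs summed over a group. The selected barcodes sum to 530912 UMIs at E12.5, and the E15.5 set to 270247. Genes with a mean CPM of at least 20 over the 2 groups were compared, and a gene was called higher or lower when the groups differed at least 2-fold after adding 10 CPM to both. The log2 ratios printed for single genes are those of the CPM values themselves, selected over Gdf5-negative, while medians over genes are of log2 ratios with 10 CPM added. At E12.5, 94 of 7087 genes (1.33%) were called higher in the selected barcodes and 69 (0.974%) lower. At E15.5, 358 of 6469 (5.53%) were called higher and 247 (3.82%) lower. The 2 ages rest on different UMI sums, so these counts are not set against each other. Across all compared genes the median log2 ratios were 0.0070 (E12.5) and 0.042 (E15.5). The calls shared 47 higher genes, 50% of the E12.5 calls and 13.1% of the E15.5 calls, and 31 lower genes, 44.9% and 12.6%.

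Genes of the joint interzone were higher beside Gdf5 at both ages. Of the 14 list genes other than Gdf5, 10 passed the level filter at E12.5 and 7 were called higher (Wnt4, Dcx, Sfrp2, Barx1, Osr2, Trps1 and Nog), with a median log2 ratio of 1.49. At E15.5, 9 of 10 were called higher (Erg, Wnt4, Wnt9a, Dcx, Sfrp2, Barx1, Osr2, Enpp2 and Trps1), with a median of 1.55. None was called lower, against backgrounds of 0.974% and 3.82% of all compared genes. The list was drawn up from knowledge of the interzone with earlier results of these data in view. With a minimum of 1 Gdf5 UMI in place of 2, the calls of Dcx and Nog at E12.5 and of Dcx, Wnt4 and Wnt9a at E15.5 were lost.

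**Figure D1:**
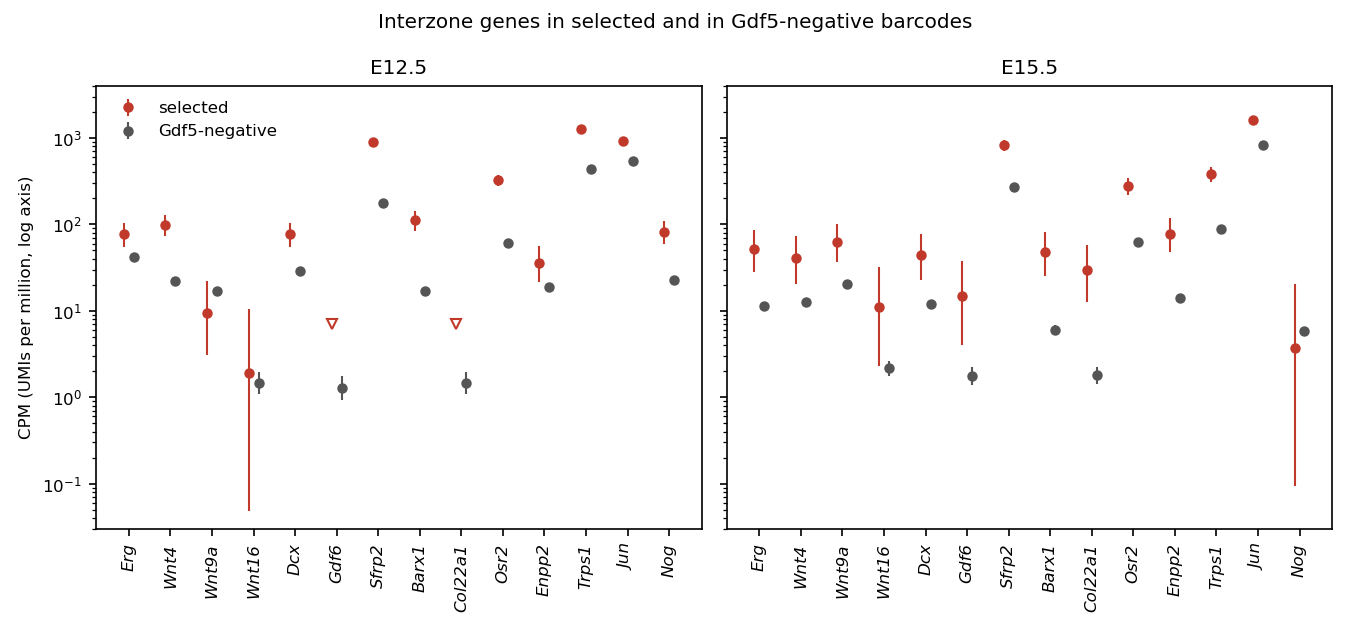
Levels of 14 interzone genes in selected barcodes (red) and Gdf5-negative barcodes (grey) at E12.5 and E15.5, as CPM on a log axis. Points are group sums, bars are 95% Poisson intervals that cover counting error only, and an open triangle marks the upper bound of a gene with 0 UMIs; Sfrp2 stands at 900.3 against 175 at E12.5 and Osr2 at 324 against 61.4.

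Sfrp2 encodes a secreted Frizzled-related protein that binds Wnt ligands. It was detected in 158 of 185 selected barcodes at E12.5, then in 26 of the 31. Its level was 900.3 CPM (821 to 985) against 175 at E12.5, a log2 ratio of 2.36 (2.22 to 2.50), and 821 (717 to 937) against 269 at E15.5, with a ratio of 1.61 (1.41 to 1.80). The intervals of the groups were far apart at both ages. Over barcodes with 0, 1, 2 and 3 or more Gdf5 UMIs, Sfrp2 stood at 175, 686, 903 and 894 CPM at E12.5. At E15.5 the same groups stood at 269, 652, 678 and 912 CPM. Only the group with 0 could hold Matn1, Myog or Cdh5, and Gdf5 UMIs also set the selection, so that these values are a description. Gm26771, an antisense gene that overlaps the end of Sfrp2 by 464 bases, had 1055 against 197 CPM at E12.5 and 940.0 against 224 at E15.5. The sources used here do not state whether counting used the strand, so that UMIs of Sfrp2 and Gm26771 may be mixed where they overlap.

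The stretch upstream of Sfrp2 is shown with that of Tgfbi, a gene of extracellular matrix described further on, because both were called higher at both ages and have a RefSeq promoter window on a build that matches the gene positions used. Sfrp2 lies at chr3:83766321-83774316 and Tgfbi at chr13:56609523-56639562, both on the plus strand of GRCm38. The stretches are from RefSeq, build GRCm38.p6, and end at the base before the annotated gene start (chr3:83766071-83766320 and chr13:56609336-56609522). Capitals mark ACAANG on either strand, the core letters bound by SOX proteins, searched because Sox9 was among the higher genes.
Sfrp2: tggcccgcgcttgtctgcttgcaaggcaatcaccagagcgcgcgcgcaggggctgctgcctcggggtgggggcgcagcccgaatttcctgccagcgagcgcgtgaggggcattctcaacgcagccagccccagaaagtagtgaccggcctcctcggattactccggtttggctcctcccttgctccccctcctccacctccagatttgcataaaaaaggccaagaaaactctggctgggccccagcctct
Tgfbi: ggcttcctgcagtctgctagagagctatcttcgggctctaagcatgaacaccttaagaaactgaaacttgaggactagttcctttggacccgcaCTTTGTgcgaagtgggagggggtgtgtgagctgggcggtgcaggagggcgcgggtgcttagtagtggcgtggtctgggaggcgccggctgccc
Sfrp2 held no match in its 250 bases and Tgfbi held 1 in its 187. Over all RefSeq windows of 250 bases before a start, 11933 of 32851 (36.3%) held the letters. Of the 47 genes called higher at both ages, 35 were matched to 56 windows, of which 13 (23.2%) held them. A match to these letters is a description of the sequence and not a binding site.

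Several transcription factors of the interzone list were called higher. Osr2 (ENSMUSG00000022330, chr15:35296098-35303305, plus strand), a zinc finger factor of synovial joints, was detected in 96 of 185 and 23 of 31 selected barcodes. It stood at 324 CPM (277 to 376) against 61.4 at E12.5, a log2 ratio of 2.40 (2.17 to 2.63), and at 278 (218 to 348) against 62.6 at E15.5, with a ratio of 2.15 (1.80 to 2.48). The level of Osr2 in Gdf5-negative barcodes was close at both ages. Trps1, a GATA-type zinc finger repressor, was detected in 170 of 185 barcodes at E12.5 at 1260.1 CPM against 436, a log2 ratio of 1.53 (1.42 to 1.64). At E15.5 Trps1 stood at 381 against 87.5, a log2 ratio of 2.12 (1.83 to 2.41). Barx1, a homeobox factor, had UMIs in 39 of 185 and 9 of 31 barcodes. Its levels were 111 CPM (84.6 to 143) against 16.7 at E12.5 and 48.1 (25.6 to 82.3) against 6.07 at E15.5.

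Erg, an ETS factor of articular cartilage precursors, was called higher at E15.5 and not at E12.5, a difference that was not tested. It stood at 77.2 CPM (55.4 to 105) against 42.3 at E12.5 and at 51.8 (28.3 to 86.9) against 11.5 at E15.5. Barcodes with Cdh5 held 109 and 69.3 CPM of Erg, which endothelial cells also express, while Cdh5 itself is at 0 in the selected barcodes by the rule. Of 6 endothelial markers that the rule did not use, 3 had 0 UMIs in the selected barcodes at E12.5 and 4 at E15.5. Pecam1 was at 0 at both ages. Kdr and Egfl7 were called lower at E15.5. Against Gdf5-negative barcodes without Matn1, Myog and Cdh5 they gave 0.38 and -0.61 with 10 CPM added. Dcx, which encodes the microtubule protein doublecortin, stood at 77.2 CPM against 29.0 at E12.5 and 44.4 against 12.1 at E15.5. Jun, an AP-1 factor that also responds to dissociation, was not called at either age: it stood at 912 against 538 CPM at E12.5 and 1602 against 834 at E15.5.

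Of the Wnt ligands, Wnt4 was called higher at both ages and Wnt9a at E15.5. Wnt4 stood at 97.9 CPM (73.1 to 128) against 22.4 at E12.5 and 40.7 (20.3 to 72.8) against 12.49 at E15.5. Wnt9a had 5 UMIs in 5 of 185 barcodes at E12.5, or 9.42 CPM (3.06 to 22.0) against 17.1, and did not pass the level filter. At E15.5 it had 17 UMIs in 9 of 31 barcodes, or 62.9 CPM (36.6 to 101) against 20.6, and was called higher. Wnt11 stood at 40.7 CPM against 9.46 at E15.5.

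The wider Wnt list of 27 genes was mixed at E12.5. Of 14 that passed, 3 were called higher (Wnt4, Sfrp2 and Dkk3) and 4 lower (Dkk2, Rspo3, Lef1 and Ror2), with a median log2 ratio of -0.12. A minimum of 1 Gdf5 UMI ended the calls of Dkk3, Rspo3, Lef1 and Ror2. At E15.5, 6 of 13 were called higher (Wnt4, Wnt9a, Wnt11, Sfrp2, Dkk3 and Fzd9) and 2 lower (Dkk2 and Rspo3), with a median of 0.68. The same minimum ended both lower calls (-0.10 and -0.43 with 10 CPM added) and that of Wnt11 (0.60), besides Wnt4 and Wnt9a. Dkk3, a secreted member of the Dickkopf family, had 28 UMIs in 23 barcodes at E12.5, or 52.7 CPM (35.0 to 76.2) against 20.6. At E15.5 it had 110 UMIs in 27 of 31 barcodes, or 407 CPM (335 to 491) against 31.5, a log2 ratio of 3.69 (3.40 to 3.98). At E15.5, barcodes with 0, 1, 2 and 3 or more Gdf5 UMIs stood at 31.5, 186, 248 and 508 CPM of Dkk3, a description with the limits given for Sfrp2. Fzd9, a Frizzled receptor, stood at 59.2 CPM (33.8 to 96.1) against 3.50 at E15.5, and in male barcodes its ratio with 10 CPM added was -0.35. On the lower side, Dkk2, an inhibitor of canonical Wnt signalling, stood at 26.4 CPM against 99.6 at E12.5 and 33.3 against 190.0 at E15.5. Rspo3, a secreted enhancer of Wnt signalling, had 9 UMIs against a level of 51.0 CPM at E12.5 and 1 UMI at E15.5, where its ratio of 0.0629 has an interval of 0.00159 to 0.351.

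In the BMP and GDF pathway, 2 antagonists were called higher at E12.5. Of 34 list genes other than Gdf5, 22 passed; Nog and Chrdl1 were called higher and 0 lower, with a median log2 ratio of 0.052. Nog encodes noggin, which binds BMP ligands and GDF5. It had 43 UMIs in 30 barcodes, or 81.0 CPM (58.6 to 109) against 22.9, a log2 ratio of 1.82 (1.34 to 2.27). Chrdl1, a chordin-like antagonist, had 62 UMIs in 47 barcodes, or 117 CPM (89.5 to 150) against 25.3, a log2 ratio of 2.21 (1.81 to 2.58). Of the receptors, Bmpr1b, the preferred type I receptor of GDF5, stood at 119 CPM (91.2 to 152) against 59.1 and missed the call, with 2.01-fold before and less than 2-fold after adding 10 CPM.

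At E15.5 the same list gave 6 higher genes among 17 that passed (Bmp2, Chrdl1, Bmpr1b, Smad7, Id1 and Id3) and 1 lower (Fst), with a median of 0.73. A minimum of 1 Gdf5 UMI ended the calls of Bmp2 (0.91 with 10 CPM added), Bmpr1b (0.14), Smad7 (0.95), Id3 (0.59) and Fst (-0.96). Id1 and Id3, which respond to BMP signalling in many cells, were 2 of the 6 higher genes. Id1 stood at 381 CPM in Gdf5-negative barcodes and 380.5 in selected ones at E12.5. At E15.5 it stood at 866 CPM (758 to 984) in 30 of 31 selected barcodes against 156, a log2 ratio of 2.47 (2.28 to 2.66). Id3 stood at 744 against 334 CPM. Smad7, an inhibitor of the pathway that it also responds to, stood at 152 CPM (109 to 206) against 46.6. Fst, which encodes the activin antagonist follistatin, had 3 UMIs, a ratio of 0.143 (0.0296 to 0.419) to a level of 77.4 CPM. Nog had 1 UMI at E15.5 and did not pass the filter. Bmpr1b stood at 40.7 CPM (20.3 to 72.8) against 14.9, from 11 UMIs in 5 barcodes, and its call was lost without the deepest barcode (0.99 with 10 CPM added) and turned in male barcodes (-1.23).

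Genes known from articular cartilage and synovium were partly higher. Of 16, 7 passed at E12.5 with 3 called higher (Vcan, Creb5 and Htra1), 0 lower and a median log2 ratio of -0.13. At E15.5, 10 passed with 3 called higher (Tnc, Creb5 and Htra1), 1 lower (Thbs4, whose call was lost with a minimum of 1 or 3 Gdf5 UMIs) and a median of 0.29. Vcan, which encodes the large proteoglycan versican, was detected in every selected barcode. It stood at 5168 CPM (4977 to 5366) against 1584 at E12.5, a log2 ratio of 1.71 (1.65 to 1.76), and at 925 (814 to 1047) against 552 at E15.5, with a ratio of 0.75 (0.56 to 0.93). Creb5, a factor linked to Prg4 expression in superficial articular cells, was detected in 130 of 185 and 29 of 31 barcodes. Its levels were 644 CPM (578 to 716) against 173 at E12.5 and 385 (314 to 466) against 118 at E15.5. Prg4 itself, the gene of lubricin, had 6 UMIs in 4 barcodes at E12.5 and did not pass the filter at either age. Htra1, a secreted protease, stood at 37.7 CPM (23.0 to 58.2) against 7.59 at E12.5 and 440.3 (365 to 527) against 75.9 at E15.5. Its E12.5 call was lost with a minimum of 3 Gdf5 UMIs (0.70 with 10 CPM added). Tnc, the gene of tenascin C, stood at 60.3 CPM (41.2 to 85.1) against 128 at E12.5 and at 185 (137 to 244) against 44.4 at E15.5, on opposite sides of the Gdf5-negative level.

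Cartilage genes were mixed at E12.5. Sox9 (ENSMUSG00000000567, chr11:112782224-112787760, plus strand), the master regulator of chondrogenesis, was detected in 167 of 185 selected barcodes at E12.5 and in 31 of 31 at E15.5. It stood at 1313 CPM (1217 to 1414) against 718 at E12.5, a log2 ratio of 0.87 (0.76 to 0.98) that was not called, and at 759 (658 to 870) against 96.3 at E15.5, with a ratio of 2.98 (2.77 to 3.18). Sox5 and Sox6, its partners, were called higher at both ages: Sox5 stood at 509 against 187 CPM and 167 against 17.0, and Sox6 at 348 against 142 and 96.2 against 12.3. At E12.5 these were the 2 higher genes of 16 cartilage genes that passed, while 4 were called lower (Matn4, Hapln1, Runx2 and Runx3), with a median log2 ratio of -0.11. Hapln1, which links aggrecan to hyaluronan, stood at 15.1 CPM (6.51 to 29.7) against 88.1. When Gdf5-negative barcodes with Matn1, Myog or Cdh5 were left out as well, the ratios with 10 CPM added went from -1.97 to -0.48 for Hapln1 and from -1.07 to -0.57 for Matn4, and both calls were lost. The call of Matn4 was also lost with a minimum of 1 (-0.77) or 3 Gdf5 UMIs (-0.84), and that of Sox6 with 1 (0.91). Runx2, the factor of hypertrophic chondrocytes and osteoblasts, stood at 15.1 (6.51 to 29.7) against 117. Col2a1, the gene of type II collagen, was not called at E12.5, at 1311 CPM against 1036.

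At E15.5 all 14 cartilage genes that passed were called higher, with a median log2 ratio of 2.39 against 0.042 over all genes. The call of Matn4 was lost under stricter exclusion of other cells and deep barcodes (0.083 with 10 CPM added) and against Gdf5-negative barcodes of matched depth (0.91). That of Col11a2 was lost with a minimum of 1 Gdf5 UMI (0.74) and with every barcode weighted equally (0.95). Col2a1 stood at 1025 CPM (908 to 1153) against 163, Acan, the gene of aggrecan, at 296 (235 to 368) against 27.7, and Col9a3 at 611 (521 to 711) against 58.6. The comparison group differed between the ages as well. Col2a1 stood at 1036 CPM in Gdf5-negative barcodes at E12.5 and 163 at E15.5, while in selected barcodes it stood at 1311 and 1025. All 16 cartilage genes that passed in the Gdf5-negative barcodes were called lower at E15.5 than at E12.5. The makeup of the Gdf5-negative barcodes was not matched between ages, and fewer chondrocytes among them cannot be told apart from less RNA of these genes per cell.

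Against barcodes with Matn1 and no Gdf5 (1395 and 76 barcodes at the 2 ages) the values were as follows. The rule bars Matn1, a matrix gene, from the selected barcodes and the comparison group was chosen for it, so that lower cartilage matrix is built into this comparison and it is a description. Sox9 gave log2 ratios of -0.12 and -0.07, E12.5 first, that of Sox5 0.23 and -0.06, and that of Sox6 0.22 and -0.18. Col2a1 gave -1.39 and -2.44, Acan -2.40 and -1.53, Col9a1 -2.68 and -2.47, Col11a1 -1.77 and -2.05, and Hapln1 -4.95 and -2.25. The ratios were positive for interzone and articular genes, with 2.74 and 2.21 for Sfrp2, 2.46 and 3.16 for Barx1, 2.82 and 2.08 for Creb5, and 2.41 and 3.38 for Sulf1, an enzyme that trims heparan sulfate.

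**Figure D2:**
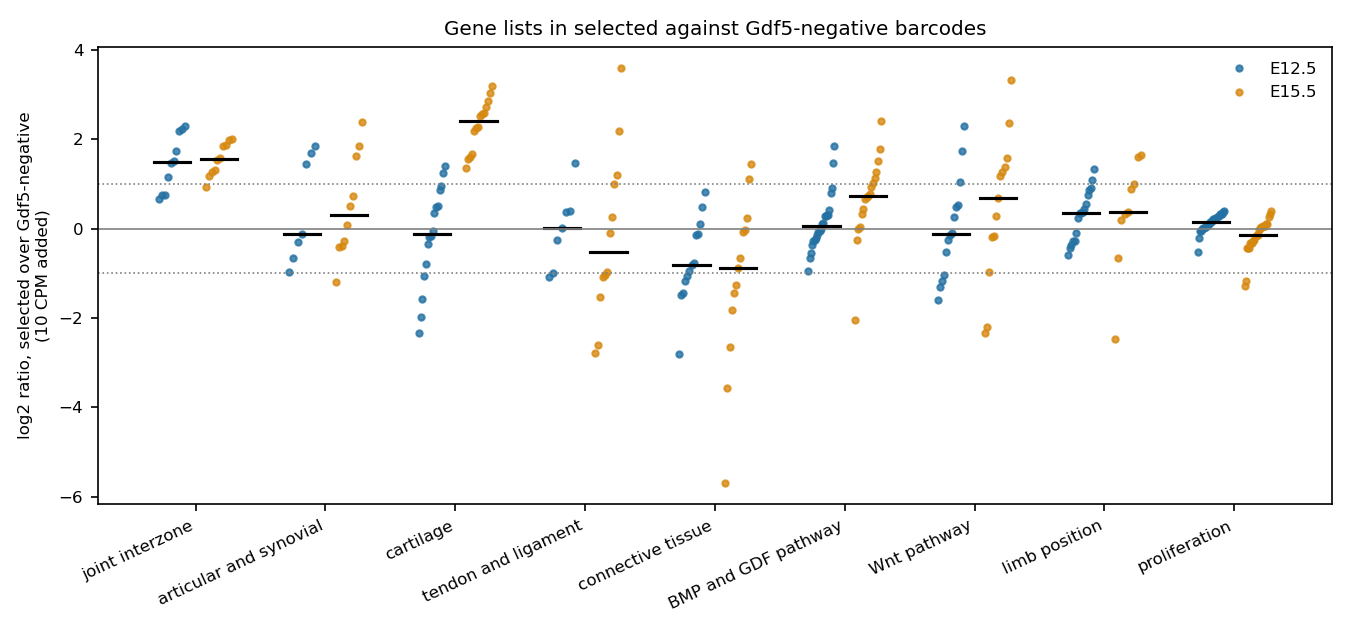
Log2 ratios of selected over Gdf5-negative barcodes, with 10 CPM added to both, for each list gene that passed the level filter (blue E12.5, orange E15.5). The black line is the list median and dotted lines mark 2-fold; cartilage genes lie around 0 at E12.5 and above 1 at E15.5, and connective tissue genes lie mostly below 0 at both ages.

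Shares of barcodes with a UMI were taken after thinning each barcode to 2000 UMIs. Thinning left out 50 selected barcodes at E12.5 and 0 at E15.5. Sfrp2 was detected in 77.0% of selected barcodes at E12.5, 60.9% of those with 1 Gdf5 UMI, 21.9% of Gdf5-negative ones, 19.9% of those with Matn1 and 11.2% of those with Cdh5. At E15.5 the shares of Sfrp2 were 64.5%, 57.5%, 31.2%, 21.3% and 9.73%. Sox9 was detected in 85.2% of selected, 53.2% of Gdf5-negative, 83.2% of Matn1 and 23.9% of Cdh5 barcodes at E12.5. Its shares at E15.5 were 61.3%, 13.97%, 58.7% and 3.24%. Acan was detected in 17.0% of selected and 54.2% of Matn1 barcodes at E12.5. At E15.5 the shares were 41.9% (24.5 to 60.9%) and 62.7% (50.7 to 73.6%), with intervals that overlap, and the choice of the groups by Matn1 bears on both.

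**Figure D3:**
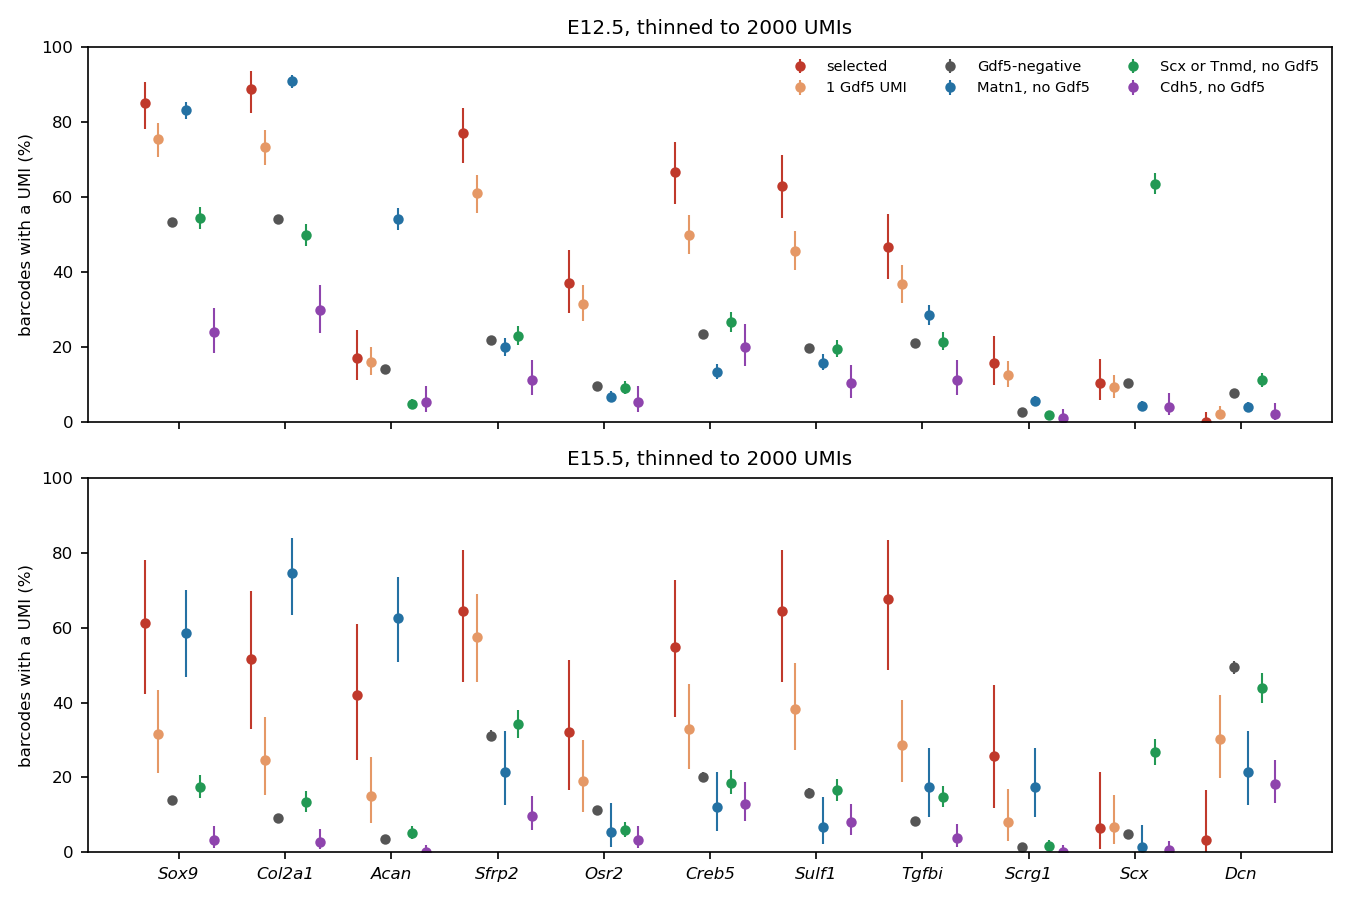
Share of barcodes with at least 1 UMI of each of 11 genes after thinning to 2000 UMIs, in 6 groups per library: selected, 1 Gdf5 UMI, Gdf5-negative, Matn1 without Gdf5, Scx or Tnmd without Gdf5, and Cdh5 without Gdf5. Bars are 95% binomial intervals; Sfrp2 reaches 77.0% and then 64.5% of selected barcodes, and Sox9 85.2% and 61.3%.

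Tendon genes were mixed. Scx, the tendon and ligament factor, stood at 64.0 CPM against 63.8 at E12.5 and 40.7 (20.3 to 72.8) against 32.7 at E15.5. Of 12 list genes, 7 passed at E12.5 with Tgfbi higher and Col1a1 lower (median log2 ratio 0.0045). That E12.5 call of Col1a1 was lost with a minimum of 1 Gdf5 UMI (-0.69 with 10 CPM added) and in male barcodes (-0.51). All 12 passed at E15.5 with 3 higher (Mkx, Fmod and Tgfbi), 5 lower (Tnmd, Kera, Col1a1, Col14a1 and Thbs2) and a median of -0.53. With a minimum of 1 Gdf5 UMI, the ratios with 10 CPM added turned to 0.78 for Tnmd, 0.11 for Col1a1, 0.20 for Col14a1 and 0.16 for Thbs2. The call of Kera was lost there (-0.73). That of Mkx was lost under stricter exclusion of other cells and deep barcodes (0.65) and in male barcodes (0.072). Tnmd, the gene of tenomodulin, had 1 UMI at E15.5, a ratio of 0.0437 (0.0011 to 0.243) to a level of 84.8 CPM, and Kera, the gene of keratocan, had 0, at least 4.58-fold lower than 50.9 CPM. Fmod, the gene of fibromodulin, went the other way, at 141 CPM (99.5 to 193) against 23.4. Tgfbi, a matrix protein that binds integrins, was the second highest gene by ratio at E15.5. It was detected in 108 of 185 and 27 of 31 selected barcodes, at 382 CPM (332 to 439) against 133 at E12.5 and 659 (565 to 763) against 45.4 at E15.5.

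Some markers of limb connective tissue were called lower. Of 13 of 14 genes that passed at E12.5, 5 were called lower (Prrx1, Prrx2, Lum, Dcn and Meox2) and 0 higher, with a median log2 ratio of -0.82. The calls of Prrx1 (-0.70 with 10 CPM added), Prrx2 (-0.73) and Meox2 (-0.83) were lost with a minimum of 1 Gdf5 UMI. At E15.5, 6 of 13 were called lower (Twist1, Dpt, Lum, Dcn, Dlk1 and Meox2) and 2 higher (Pdgfra and Tcf4), with a median of -0.87. All 8 of these calls were lost with a minimum of 1 Gdf5 UMI, where Twist1 gave -0.28, Dpt -0.10, Lum -0.49, Dcn -0.80, Dlk1 -0.68, Meox2 -0.52, Pdgfra 0.77 and Tcf4 0.45. Dcn, the gene of decorin, had 0 UMIs in the selected barcodes at E12.5, at least 10.7-fold lower than 60.2 CPM. At E15.5 it had 2 UMIs, a ratio of 0.00837 (0.00101 to 0.0302) to a level of 884 CPM. The barcodes with 1 Gdf5 UMI held 696 CPM of Dcn at E15.5, between the other groups and nearer to the Gdf5-negative level. Prrx1, a factor of limb mesenchyme, stood at 292 CPM (248 to 342) against 809.9 at E12.5 and 107 (71.9 to 154) against 205 at E15.5. Pdgfra, the receptor that marks fibroblasts and their precursors, stood at 326 CPM (261 to 401) against 114 at E15.5.

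Hedgehog genes were few. At E12.5, Gli2 was the 1 called gene of 6 that passed, at 102 CPM (76.4 to 133) against 41.3. Its call was lost with a minimum of 1 (0.82 with 10 CPM added) or 3 Gdf5 UMIs (0.81) and in male (0.21) or female barcodes alone (0.97). At E15.5, Ptch1 and Gli3 were called higher of 6 that passed. Ptch1, the hedgehog receptor and a target of the pathway, stood at 181 against 296 CPM at E12.5 and 141 (99.5 to 193) against 37.3 at E15.5. Gli3, a transcription factor of the pathway, stood at 281 against 135 CPM and 226 against 47.4.

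Other genes ranked highest by ratio included several of matrix and cell surface. Scrg1, a secreted protein also known from chondrocyte cultures, was among the 3 highest at both ages. It had 68 UMIs in 46 of 185 barcodes at E12.5, or 128 CPM (99.5 to 162) against 17.4. At E15.5 it had 78 UMIs in 18 of 31 barcodes, or 289 CPM (228 to 360) against 5.60, which is 51.5-fold (39.4 to 66.8). Scrg1 stood at 31.2 and 109 CPM in Matn1 barcodes. Btc, the gene of the EGF-family ligand betacellulin, had 23 UMIs in 12 of 31 barcodes at E15.5, or 85.1 CPM (54.0 to 128) against 2.10. Man1a, a mannosidase of the Golgi, led the E12.5 ranking at 130.0 CPM (101 to 164) against 16.4 and stood at 70.3 against 21.8 at E15.5. Sulf1 stood at 550.0 CPM (489 to 617) against 140.0 at E12.5 and 599 (511 to 699) against 96.7 at E15.5. Foxc1, a forkhead factor, stood at 196 against 75.3 CPM and 133 against 13.01.

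The 10 lowest ratios at each age included muscle genes at both ages, blood and mast cell genes at E15.5, Dcn at both ages, Runx2 and Hapln1 at E12.5 and Lum at E15.5. The rule itself lowers muscle genes by barring Myog. Against Gdf5-negative barcodes that also lack Matn1, Myog and Cdh5, the ratio of the sarcomere gene Actc1 at E12.5, with 10 CPM added, was -0.19 in place of -2.82. Summed over 9 muscle markers, selected barcodes held 102 CPM against 981 at E12.5 and 55.5 against 710.4 at E15.5. The 6 endothelial markers summed to 9.42 against 91.8 and 18.5 against 234. Immune markers, which the rule did not use, summed to 1.88 against 38.4 CPM at E12.5 with 6 of 7 at 0, and to 0 against 276 at E15.5 with all 7 at 0. The mast cell protease gene Cma1 had 0 UMIs in the 31 selected barcodes at E15.5, against 442 CPM in Gdf5-negative ones. No fold is drawn from the zeros of immune and mast cell genes, because so few barcodes can miss a rare cell type. The 7 erythroid markers summed to 1897 against 1909 CPM at E12.5 and 211 against 2491 at E15.5. Hbb-y, an embryonic globin, had UMIs in 47 of 185 barcodes at E12.5. Mural markers summed to 181 against 189 and 196 against 195 CPM, but single genes differed at E15.5. Cspg4 was called higher there (1.26 with 10 CPM added), while the list median was -0.30. Its call was lost with a minimum of 1 Gdf5 UMI (0.60). After thinning, at least 1 mural marker was detected in 45.2% (27.3 to 64.0%) of selected and 23.8% of Gdf5-negative barcodes at E15.5. At least 2 were detected in 0% and 4.18%. All 5 osteoblast markers were at 0 in the selected barcodes at both ages. The part of these other cells in the ratios was not tested.

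The selected barcodes differed among themselves at E15.5. Ranked by depth, they ran from 3925 to 17010 UMIs. Of the 277 Col2a1 UMIs, 71 came from 1 barcode and 52 from the deepest one, and 5 of 31 barcodes had none. Without the deepest barcode, 342 genes were called higher and 255 lower, and 313 and 224 of these were the same genes as with it. After thinning, 16 barcodes held a Col2a1 UMI and 15 did not. Sox9 was then detected in 13 of the 16 and 6 of the 15, and Scrg1 in 7 and 1. Sfrp2 was detected in 8 of the 16 and 12 of the 15, and Osr2 in 3 and 7. These splits rest on few barcodes and are given as counts.

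**Figure D4:**
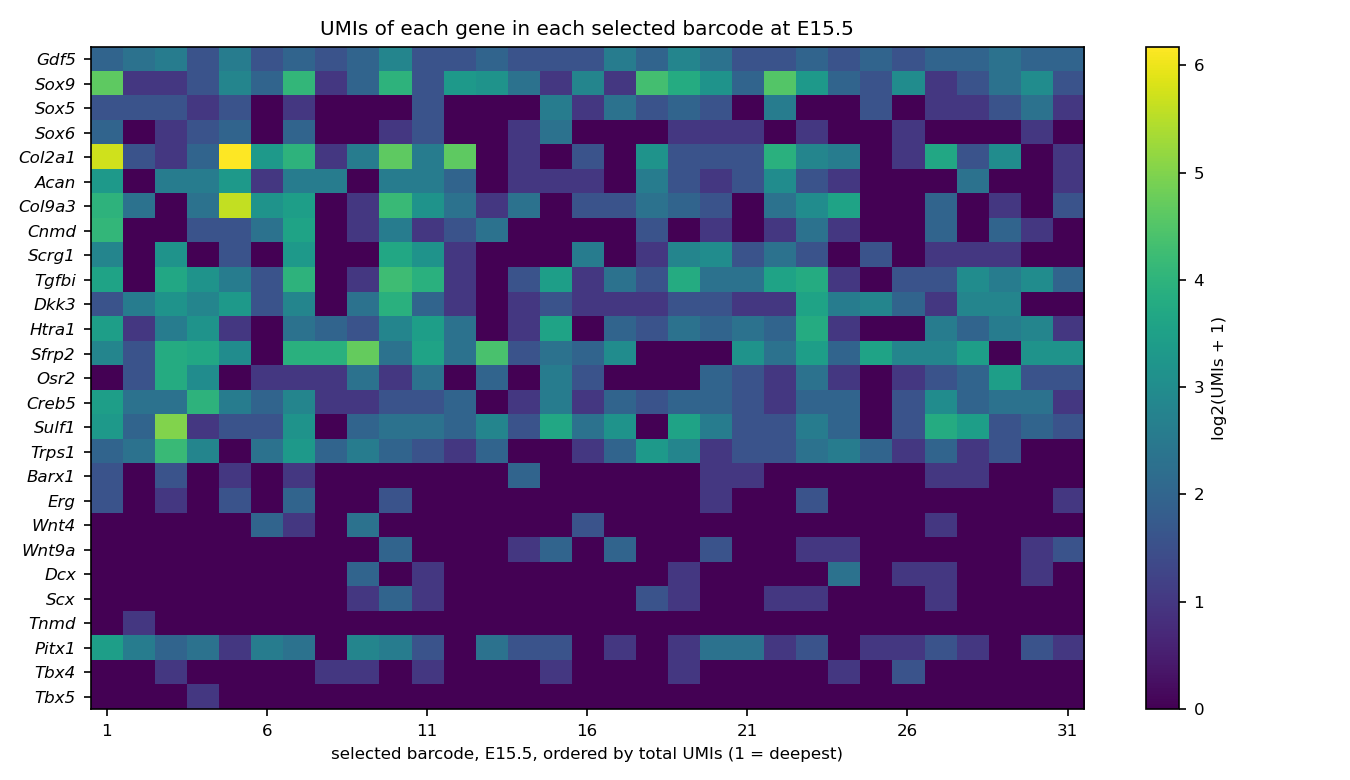
UMIs of 27 genes in each of the 31 selected barcodes at E15.5, as log2(UMIs + 1), with barcodes ordered by total UMIs (3925 to 17010). Sox9 has a UMI in all 31 barcodes, while Col2a1 is concentrated in a few of them, with 71 and 52 UMIs in 2 barcodes.

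Fore- or hindlimb identity was read from Tbx5, a forelimb factor, and from Pitx1 and Tbx4, hindlimb factors. At E12.5, 30 selected barcodes held Tbx5 alone, 78 Pitx1 or Tbx4 alone, 24 both and 53 neither. Tbx5 thus made up 27.8% (19.6 to 37.2%) of 108 one-sided barcodes, against 25.2% of Gdf5-negative ones. At E15.5, 0 barcodes held Tbx5 alone, 26 held hindlimb factors alone, 1 both and 4 neither. With 0 of 26, the exact interval reaches 13.2% (11.5% by a floor of 3 counts), and the Gdf5-negative share was 15.49% and that of Matn1 barcodes 8.33%. Pitx1 stood at 274 CPM (215 to 344) against 80.7 in E15.5 selected barcodes, so that these barcodes came mostly with hindlimb factors. Hoxd9 was called higher at both ages, at 88.5 against 29.2 CPM and 37.0 against 5.42. Of the 27 genes of limb position, 17 passed at E12.5 with Tbx4 and Hoxd9 called higher, and 9 passed at E15.5 with Tbx4, Pitx1 and Hoxd9 higher and Shox2 lower. The call of Tbx4 was lost in 4 alternative settings at E12.5 and in 8 at E15.5, with values from 0.38 to 0.96 at the later age. The E15.5 calls of Hoxd9 (0.84) and Shox2 (-0.96) were lost with a minimum of 1 Gdf5 UMI.

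Between the ages, the selected barcodes were compared E15.5 over E12.5, with the same ratio in Gdf5-negative barcodes beside it. Of 6842 genes, 438 (6.4%) were called higher at E15.5 and 876 (12.8%) lower in selected barcodes, with a median log2 ratio of -0.21. Centred on the median gene, the counts were 652 higher and 486 lower. In Gdf5-negative barcodes, 275 of 6836 (4.02%) were called higher and 551 (8.06%) lower, with a median of -0.27. Age goes together with library, depth and the number of selected barcodes, which cannot be told apart. Ratios below are read beside these medians.

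Among interzone genes, more were called lower than higher at E15.5. Of 11 that passed, Wnt9a was called higher and 4 lower (Wnt4, Barx1, Trps1 and Nog), with a median of -0.50 against -0.40 in Gdf5-negative barcodes. Centred on the median gene, the calls of Wnt4 (-0.88) and Barx1 (-0.85) were lost, and a minimum of 1 Gdf5 UMI ended that of Wnt9a (0.87). Wnt9a went from 9.42 to 62.9 CPM, a log2 ratio of 2.74 (1.24 to 4.53), against 0.27 in Gdf5-negative barcodes. Nog went from 81.0 CPM to 1 UMI, with a ratio of -4.45 (-9.79 to -1.90), against -1.99. Sfrp2 and Osr2 stayed near their E12.5 levels, with log2 ratios of -0.13 (-0.37 to 0.10) and -0.22 (-0.63 to 0.18).

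Several genes of the articular and cartilage lists were called higher at the later age. Of 9 articular genes that passed, 6 were called higher (Cd44, Tnc, Htra1, Clu, Abi3bp and Tgfbr2) and Vcan lower, with a median log2 ratio of 1.47. In Gdf5-negative barcodes 5 of 10 were called higher too (Cd44, Htra1, Clu, Abi3bp and Thbs4) and 2 lower (Vcan and Tnc), with a median of 1.12. In selected barcodes, Tnc (0.79 with 10 CPM added) and Tgfbr2 (0.99) lost the call with a minimum of 1 Gdf5 UMI. Tnc went from 60.3 to 185 CPM, a log2 ratio of 1.62 (0.95 to 2.31), while it gave -1.53 in Gdf5-negative barcodes. Htra1 went up in both groups, by 3.55 (2.86 to 4.31) and 3.32. Among 14 cartilage genes, 3 were called higher (Acan, Cnmd and Hapln1) and 3 lower (Sox5, Sox6 and Wwp2), with a median of 0.0014 against -2.21 in Gdf5-negative barcodes. Acan gave 1.46 (0.96 to 1.98) against -2.16. Hapln1 gave 3.14 (2.01 to 4.46) against -2.03. Cnmd, the gene of chondromodulin, which blocks vessel growth, gave 1.65 (1.06 to 2.26) against -1.39. Acan gave 0.46 and Cnmd 0.51 with 10 CPM added at a minimum of 1 Gdf5 UMI, and both calls were lost. The signs of these 3 genes were opposite in the 2 groups, and the difference between groups was not tested.

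Among signalling and matrix regulators, Id1, Dkk3 and Fmod were called higher at E15.5. Id1 went from 380.5 to 866 CPM, a log2 ratio of 1.19 (0.91 to 1.47), against -1.29 in Gdf5-negative barcodes. With 10 CPM added it was 0.13 with a minimum of 1 Gdf5 UMI and 0.21 in male barcodes, and the call was lost in both. Dkk3 gave 2.95 (2.34 to 3.60) against 0.61. Fmod gave 3.05 (1.98 to 4.29) against 1.30. Of 21 BMP and GDF genes that passed, 2 were called higher (Gdf10 and Id1) and 7 lower (Nog, Chrdl1, Bmpr1b, Acvr2a, Acvr2b, Smad5 and Id4). The Wnt list gave 4 higher (Wnt9a, Wnt11, Dkk3 and Fzd9) and 4 lower (Wnt4, Wnt5a, Sfrp1 and Frzb) of 14. Wnt11 (0.59) and Fzd9 (0.81) lost the call beside Wnt9a with a minimum of 1 Gdf5 UMI, and in male barcodes Wnt11 (-0.63), Fzd9 (-1.69) and Chrdl1 (0.66) turned. The tendon list gave 5 higher (Fmod, Egr1, Col1a1, Col1a2 and Col14a1) and 0 lower of 9, and Col1a1 gave 2.55 (2.24 to 2.88) against 2.48 in Gdf5-negative barcodes. Gdf5 itself went from 829 CPM (753 to 910) to 355 (288 to 434), but its level in selected barcodes is set by the limit of 2 UMIs and by depth.

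The highest ratios with age belonged to genes that were also higher with age in Gdf5-negative barcodes. Postn, the gene of periostin, went from 20.7 to 769.7 CPM, a log2 ratio of 5.22 (4.35 to 6.24) against 3.73. Klf2, a zinc finger factor known from endothelial cells under flow, went from 49.0 to 1469 CPM, 4.91 (4.33 to 5.54) against 2.96. Mgp, an inhibitor of calcification in cartilage, went from 49.0 to 836 CPM, 4.09 (3.51 to 4.74) against 1.66. Ecrg4 had 0 UMIs at E12.5 and was at least 24.2-fold higher at E15.5, with 137 CPM. Egr1, another gene that responds to dissociation, went from 731 to 1595 CPM in selected and from 558 to 800.2 in Gdf5-negative barcodes, and its part in the age ratios was not tested.

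**Figure D5:**
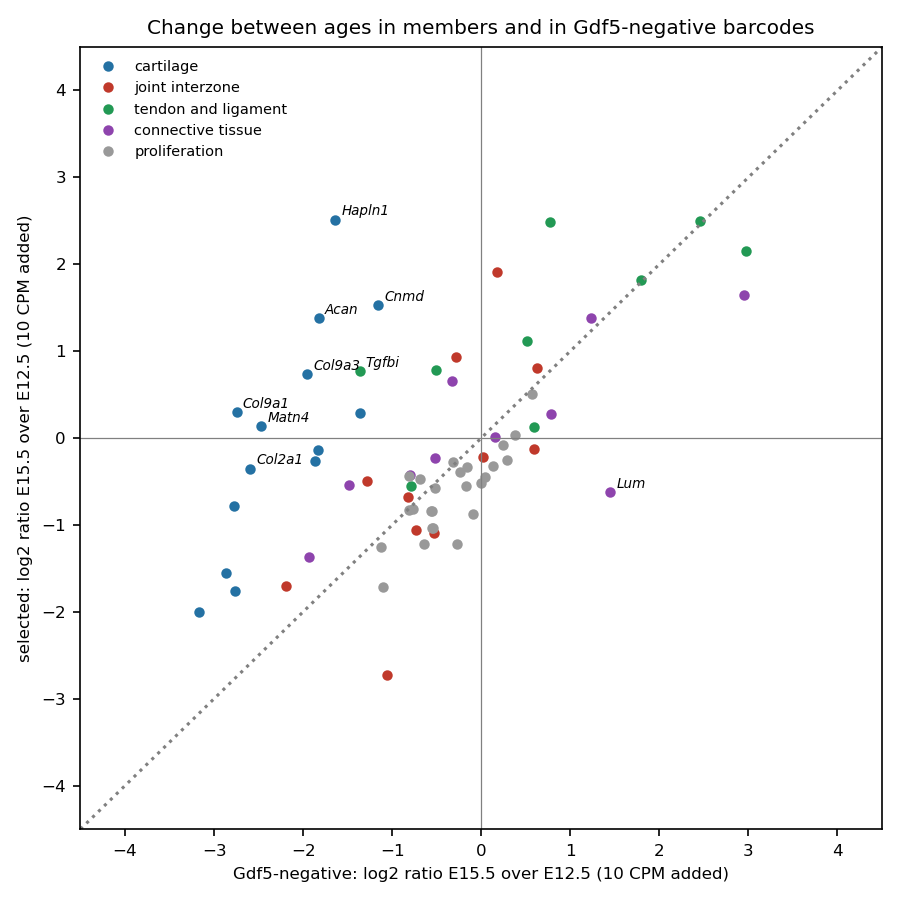
Log2 ratio of E15.5 over E12.5, with 10 CPM added, in selected barcodes (vertical) against the same ratio in Gdf5-negative barcodes (horizontal). Points are genes of the cartilage, joint interzone, tendon and ligament, connective tissue and proliferation lists that passed the filter, coloured by list. The dotted line marks equal ratios. Acan (1.38 against -1.82) and Hapln1 (2.51 against -1.64) lie far above the line.

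Limb patterning genes were lower at the later age in both groups. Of 16 that passed in selected barcodes, 10 were called lower and 0 higher, with a median of -1.34 against -1.24 in Gdf5-negative barcodes. Shox2, a factor of the proximal limb, went from 471 CPM to 18.5, a log2 ratio of -4.67 (-6.31 to -3.43) against -2.12. Tbx5 went from 137 CPM to 1 UMI, -5.22 (-10.54 to -2.69) against -2.79. Epha7, an ephrin receptor, went from 778 to 62.9 CPM, -3.63 (-4.42 to -2.93) against -2.70.

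Few proliferation genes were called against Gdf5-negative barcodes. All 25 passed at both ages. At E12.5, 0 were called in either direction, with a median log2 ratio of 0.15. At E15.5, Ccnb1 and Rrm2 were called lower, with a median of -0.14. Against Gdf5-negative barcodes of matched depth they gave -0.12 and -0.81 with 10 CPM added, and both calls were lost there, with a minimum of 1 Gdf5 UMI (-0.71 and -0.24) and under stricter exclusion (-0.41 and -0.68). Mki67, the gene of the Ki-67 antigen, stood at 648 CPM (581 to 720.4) against 575 at E12.5 and 266 (208 to 336) against 257 at E15.5. Its log2 ratio with age was -1.28 (-1.67 to -0.91) in selected and -1.16 in Gdf5-negative barcodes. With age, 6 of 25 were called lower in selected barcodes (Mki67, Ccnb1, Cenpe, Cenpf, Kif11 and Mcm4), with a median of -0.55. In Gdf5-negative barcodes 2 of 25 were (Mki67 and Cenpe), with a median of -0.32. Over all genes 12.8% and 8.06% were called lower. Stricter exclusion ended the calls of Mki67 (-0.78), Ccnb1 (-0.92), Cenpf (-0.93) and Kif11 (-0.77) in selected barcodes.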

How the data were processed

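The authors deposited, per the file headers, raw UMI counts per gene and barcode written by Cell Ranger 4.0.0. The submitters' processing notes also name Seurat 4.3.0 and the build mm10, and settings for calling cells are not given in the sources used here. Reads per UMI are unknown, so intervals cover the counting error of UMIs only.

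Barcodes with at least 500 genes and under 10% mitochondrial UMIs were kept. Raw counts were summed over selected and Gdf5-negative barcodes and given as CPM. No doublet caller was run, and the rule's exclusions and a stricter alternative stand in for it. No test was possible with 1 library per age. For shares, barcodes were thinned to 2000 UMIs. Sex was assigned to barcodes with UMIs of Xist or of Y-linked genes but not both. The selection rule and the gene lists were chosen with earlier results of these data known. Beside list genes, the 15 highest and 10 lowest genes by ratio in each library and the 10 at each end with age could be named. A gene among the highest had to have a UMI in at least 10% of selected barcodes. Positions come from GENCODE vM21 on GRCm38. The scripts were checked on simulated counts. The tools were pandas 2.3.3, scipy 1.17.1, numpy 2.4.6 and matplotlib 3.10.9 under Python 3.11.15.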

Additional observations from a re-analysis of the deposited data

Results flagged for a closer look

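Genes were flagged when the selected barcodes lay on opposite sides of the Gdf5-negative barcodes at the 2 ages. Both ages had to pass the level filter with intervals off 0, and at least 1 had to reach 2-fold with 10 CPM added. This left 6 list genes, given here as log2 ratios, and the difference between ages was not tested. Other genes changed side without meeting these limits, such as Acan (107 against 124 CPM at E12.5 and 296 against 27.7 at E15.5). Tnc gave -1.09 at E12.5 and 2.06 at E15.5. Matn4, a cartilage matrilin, gave -1.15 and 1.88. With 10 CPM added and under stricter exclusion of other cells and deep barcodes, the E15.5 value of Matn4 was 0.083. Col9a1, a chain of type IX collagen, gave -0.81 and 2.51. Hapln1 gave -2.55 and 2.63. Against Gdf5-negative barcodes without Matn1, Myog and Cdh5, the E12.5 values with 10 CPM added were -0.57 for Matn4 and -0.48 for Hapln1. Both E12.5 calls were lost there, and the rule bars Matn1 from the selected side only. Id3 gave -0.28 and 1.16. With 10 CPM added, the E15.5 call of Id3 was lost with a minimum of 1 Gdf5 UMI (0.59) and in male barcodes (0.89). It was also lost at matched depth (0.98) and under stricter exclusion (0.997). Ptch1 gave -0.71 and 1.91.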

How the results depend on the processing

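No paired analysis was possible because each age has 1 library. With a minimum of 1 Gdf5 UMI the selected shares were 6.19% (E12.5) and 2.53% (E15.5), with 3 UMIs 0.440% and 0.463%, and after thinning 0.950% and 0.0522%. The counts called higher and lower moved by over 1.5 times as follows. A minimum of 1 Gdf5 UMI gave 31 and 33 genes at E12.5 and 124 and 82 at E15.5. A minimum of 3 gave 187 and 250 at E12.5, 378 lower at E15.5 and 686 higher with age. Adding 1 CPM gave 147 and 129 at E12.5 and 547 higher at E15.5. No filter on low values gave 150 lower at E12.5, 642 lower at E15.5, and 729 and 1412 with age. A mean CPM of at least 50 gave 59 and 32, 196 and 93, and 235 and 440. Centring on the median gene gave 486 lower with age. Male barcodes only gave 803 and 645, 692 and 513, and 915 and 1638. The cause was not tested, beyond the smaller groups and the wider or narrower filter that these settings make.

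Of named genes across settings, 651 values at E12.5 kept direction and call, 51 lost the call and 3 turned; at E15.5 these were 1221, 86 and 13, and with age 813, 71 and 7. The log2 ratios that turned, all with 10 CPM added, were, with a minimum of 1 Gdf5 UMI at E15.5, 0.20 for Col14a1, 0.11 for Col1a1, 0.16 for Thbs2 and 0.78 for Tnmd. With a minimum of 3 UMIs, Hbb-bt gave 0.21 with age. Stricter exclusion of other cells gave 0.46 for Myl1 at E12.5, then 0.73 for Hbb-bs, 0.50 for Hbb-bt, 0.18 for Hbb-y and 0.22 for Kdr at E15.5, and 0.88 for Hbb-bt with age. Male barcodes gave 0.32 for Rspo3 at E12.5, -1.23 for Bmpr1b and -0.35 for Fzd9 at E15.5, and with age 0.33 for Barx1, 0.66 for Chrdl1, -1.69 for Fzd9, 1.67 for Hba-a2 and -0.63 for Wnt11. Female barcodes gave 0.29 for Hbb-y at E15.5. Gdf5-negative barcodes without Matn1, Myog and Cdh5 gave 0.091 for Myl1 at E12.5 and 0.38 for Kdr at E15.5, and those drawn to the selected barcodes' depth gave 0.34 for Hbb-y at E15.5. Chosen after seeing the data, requiring a UMI in at least 3 selected barcodes left 354 of 358 higher genes at E15.5.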
